A study of Mus musculus with 2 samples.

Results

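The insulin-like growth factor (IGF) system was examined in 2 mouse heart sections through 10 genes: the ligands Igf1 and Igf2, the receptors Igf1r and Igf2r, and the binding proteins Igfbp2 to Igfbp7. They were taken by symbol from the 19465 genes of the deposited gene list, each symbol was found once, and the rule that lists them uses no measured value. Both IGF ligands are small secreted hormones related to insulin that act as growth and survival signals through the tyrosine kinase receptor IGF1R. Insulin-like growth factor binding proteins (IGFBPs) carry the ligands in blood and in the matrix around cells, and they can hold them back from the receptor or deliver them to it. In the heart, IGF1 is known for its part in growth of cardiomyocytes, the contracting muscle cells, and IGF2 is best known as a fetal growth factor.

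One section came from an α-MHC-MerCreMer+/- control mouse and 1 from an α-MHC-MerCreMer+/- hTOP2B LSL/- mouse, called TOP2B transgenic here. The transgene, human topoisomerase II β at the Rosa26 locus, is released by a Cre enzyme that the α-MHC promoter drives in cardiomyocytes, and both mice carried this Cre and received 80 mg/kg tamoxifen intraperitoneally, which activates it. Transgenic mice given this dose were 6 weeks old. Sex and the time from tamoxifen to harvest of these 2 hearts are not given in the sources used here. Formalin-fixed, paraffin-embedded sections of 5 µm were profiled by Visium CytAssist, which hybridizes gene-specific probes to the tissue, transfers them to barcoded array positions (spots) and counts unique molecular identifiers (UMIs), so that 1 spot holds RNA of several cells. With 1 section per genotype there was no replicate: no test was made, genotype cannot be told apart from section plane, animal or library, and every 95% interval of a level, ratio or share of UMIs covers counting error only. Intervals of shares of spots treat the spots of 1 section as independent draws and do not allow for likeness of neighboring spots.

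The control section had 1256 spots with 14376300 UMIs and a median of 11336 UMIs per spot, and the transgenic section had 924 spots with 12953389 UMIs and a median of 14531. Levels are given as counts per 1000000 UMIs of the section (CPM). Since the number of probes per gene is not given in the sources used here, levels of different genes are not ranked. Both sections had the RNA of heart muscle: the summed level of the cardiomyocyte markers was 54069 CPM for the control against 34226 CPM for the transgenic section. Mouse Top2b, whose probes may not bind RNA of the human transgene, was at 106 CPM in control and 102 CPM in transgenic tissue and so does not check the genotype. Over the 15236 genes with at least 20 UMIs in both sections together, the median log2 ratio of transgenic over control was 0.20. In the transgenic section 54 spots drew at least 10% of their UMIs from red blood cell markers against 8 in the control section, and a few spots were detached from the tissue. Leaving out these 56 transgenic and 11 control spots took 2.28% and 0.0627% of the UMIs.

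All 10 genes were higher in the transgenic section, as were 63.2% of all genes, and their median log2 ratio was 1.14 against 0.20 for all genes. Of the 10, 8 were at least 2-fold higher, as were 13.7% of all genes, and 0 of 10 were at least 2-fold lower, as were 5.61% of all genes. The intervals of all 10 ratios, for counting error only, lay above 0. How many of all genes had such intervals was not counted. The 10 genes together took 0.136% of all UMIs in the control and 0.534% in the transgenic section, and most of that was Igfbp7. When the libraries were scaled by factors meant to set the typical gene equal, all 10 stayed higher. But 4 (edgeR TMM factors) or 5 (DESeq2 size factors) were at least 2-fold higher, as were 10.6% and 10.97% of all genes. The DESeq2 factors were 1 for both sections, so that setting compared plain UMI counts. Igfbp2, with 24 and 48 UMIs, was then at exactly 2-fold. In summed spots, more cells of a type and more RNA per cell cannot be told apart.

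**Figure D1:**
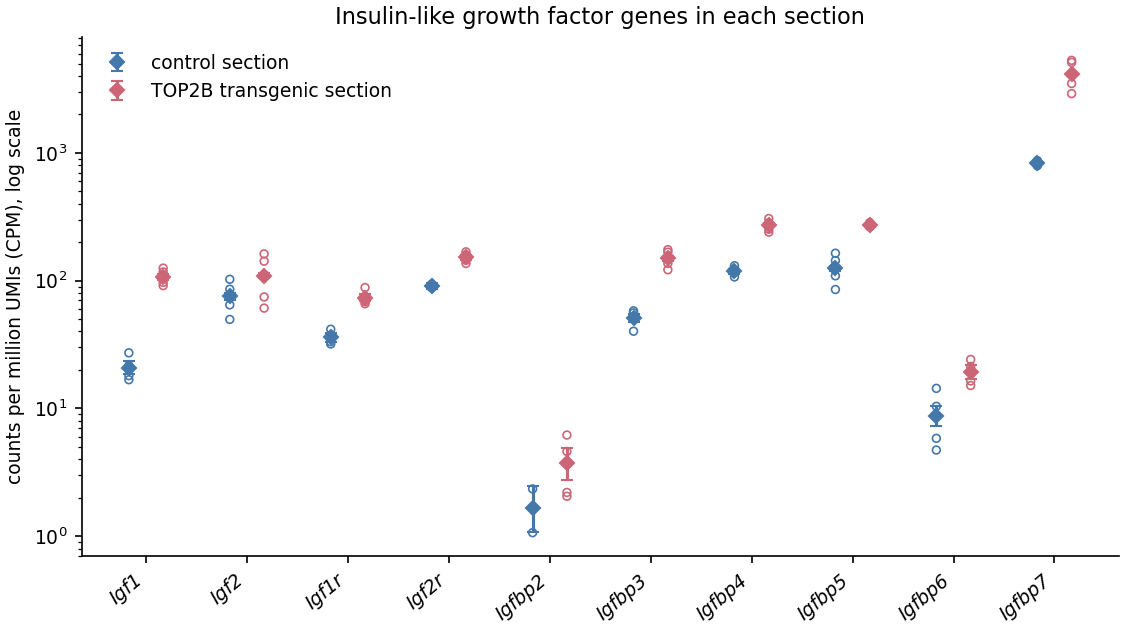
Level of each gene (CPM, log scale) in the control section (blue) and the TOP2B transgenic section (red). Diamonds are whole sections with 95% Poisson intervals (counting error only) and open circles the 4 quadrants of the section. For 8 of the 10 genes every transgenic quadrant lay above every control quadrant, as for 30.4% of all genes. For Igf2 and Igfbp2 the quadrants overlapped.

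Promoter sequences are shown for 3 members, in the 150 bases before the transcript start, because they differ in the short elements they hold. They come from RefSeq on GRCm38.p6, were chosen after the motif matches were seen, and the capitals mark each match, on either strand, to the 1 element named for that gene. Igfbp7, the binding protein with the largest ratio of transgenic over control, has GGGCGG (reverse strand CCGCCC), the GC box bound by SP factors; Igfbp4 has the TATA element TATAAA; and Igf2r has CACGTG, the E-box bound by basic helix-loop-helix factors.
Igfbp7, chr5:77408046-77408195, minus strand: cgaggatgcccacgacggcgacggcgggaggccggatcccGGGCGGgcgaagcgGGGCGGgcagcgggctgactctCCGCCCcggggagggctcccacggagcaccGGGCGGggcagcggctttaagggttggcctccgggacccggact
Igfbp4, chr11:99041094-99041243, plus strand: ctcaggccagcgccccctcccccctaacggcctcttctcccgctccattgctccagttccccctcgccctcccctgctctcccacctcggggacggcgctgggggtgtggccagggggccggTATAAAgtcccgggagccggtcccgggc
Igf2r, chr17:12769707-12769856, minus strand: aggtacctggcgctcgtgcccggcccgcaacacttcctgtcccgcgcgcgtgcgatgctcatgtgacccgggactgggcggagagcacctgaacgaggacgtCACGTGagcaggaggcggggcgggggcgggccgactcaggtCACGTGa
In the 250 bases before the start, on either strand, GGGCGG was found in 6 of the 14 windows of the 10 members (2 of Igf2 and 1 each of Igf1r, Igf2r, Igfbp2 and Igfbp7), and in 32.7% of all 32851 promoter windows. TATAAA was found in 2 of the 14 (Igfbp4 and Igfbp6) and in 12.4% of all windows, and CACGTG in 2 of the 14 (Igf2r and Igfbp2) and in 6.02%. CCAAT was found in 3 of the 14 (Igf1, Igf2 and Igfbp6) and in 33.8%. None of the searched motifs contains another. A match describes the letters of the window and not a bound site, and the 5 members with GGGCGG include both Igfbp7 and the gene with the smallest ratio, Igf2.

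Igf1, the main growth-promoting ligand, was at 20.8 CPM (18.5 to 23.3) in the control section and at 108 CPM (102 to 113) in the transgenic section. The log2 ratio was 2.37 (2.19 to 2.56), a 5.17-fold difference, and rank 341 from the top of 15236 genes. The control quadrants ran from 16.8 to 27.2 CPM and the transgenic quadrants from 91.5 to 125 CPM. Every transgenic quadrant thus lay above every control quadrant, as for 30.4% of all genes. At least 1 Igf1 UMI was found in 20.7% of control spots (18.5 to 23.0) and in 71.1% of transgenic spots (68.1 to 74.0). With every spot at 8134 UMIs, which left out the 140 control and 78 transgenic spots below that depth, the shares were 14.7% and 56.5%. Its richest 5% of spots held 17.1% of Igf1 UMIs in the transgenic and 34.1% in the control section, a share that is also lower where a gene has more UMIs.

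Igf2, the paternally expressed fetal ligand, had the smallest difference of the 10. It was at 75.4 CPM (71.0 to 80.0) in the control and at 110 CPM (104 to 115) in the transgenic section, giving a log2 ratio of 0.54 (0.42 to 0.66). Its quadrants overlapped: 49.7 to 102 CPM in the control, and 162 and 142 CPM in the left and 61.0 and 74.6 CPM in the right quadrants of the transgenic section. Without the blood-rich and detached spots, the transgenic right quadrants were at 58.1 and 73.8 CPM. Both right transgenic quadrants thus lay below the upper control quadrants, at 102 and 85.7 CPM, although the section as a whole was higher. Quadrants were cut at the center of each section and were not matched by anatomy. The upper left control quadrant, highest in Igf2, also had atrial markers at 73.8 CPM, against 8.61 to 12.2 CPM in the other control quadrants. The upper right one, next in Igf2, had them at 10.1 CPM. In the transgenic section atrial markers were at 86.5 and 89.3 CPM in the left quadrants and at 167 and 187 CPM in the right ones. What part atrial tissue has in the level of Igf2 was not tested. Igf1 made up 21.6% (19.5 to 23.9) of the UMIs of both ligands in the control and 49.5% (47.7 to 51.4) in the transgenic section.

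Igf2 had the highest spatial score of the 10 genes in the control section. Its deposited Moran's I, which is near 0 when neighboring spots are unrelated and nears 1 when they are alike, was 0.24 in the control section, rank 14 of 19219 genes scored. In the transgenic section it was 0.33, rank 353 of 19227. The 5% of spots with the most Igf2 UMIs held 35.0% of Igf2 UMIs in the control and 39.9% in the transgenic section. In the transgenic section 1 spot held 46 Igf2 UMIs. Spots were also ranked by the share of their own UMIs that was Igf2. Of the top 47 transgenic spots, 59.6% (44.3 to 73.6) lay at the tissue edge, where 33.7% of all spots and 28.1% of all UMIs lay. This interval treats spots as independent draws, although neighboring spots were alike in Igf2. The same ranking for Igf2r placed 55.3% at the edge, although Igf2r was at 156 CPM there and 151 CPM in the interior.

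**Figure D2:**
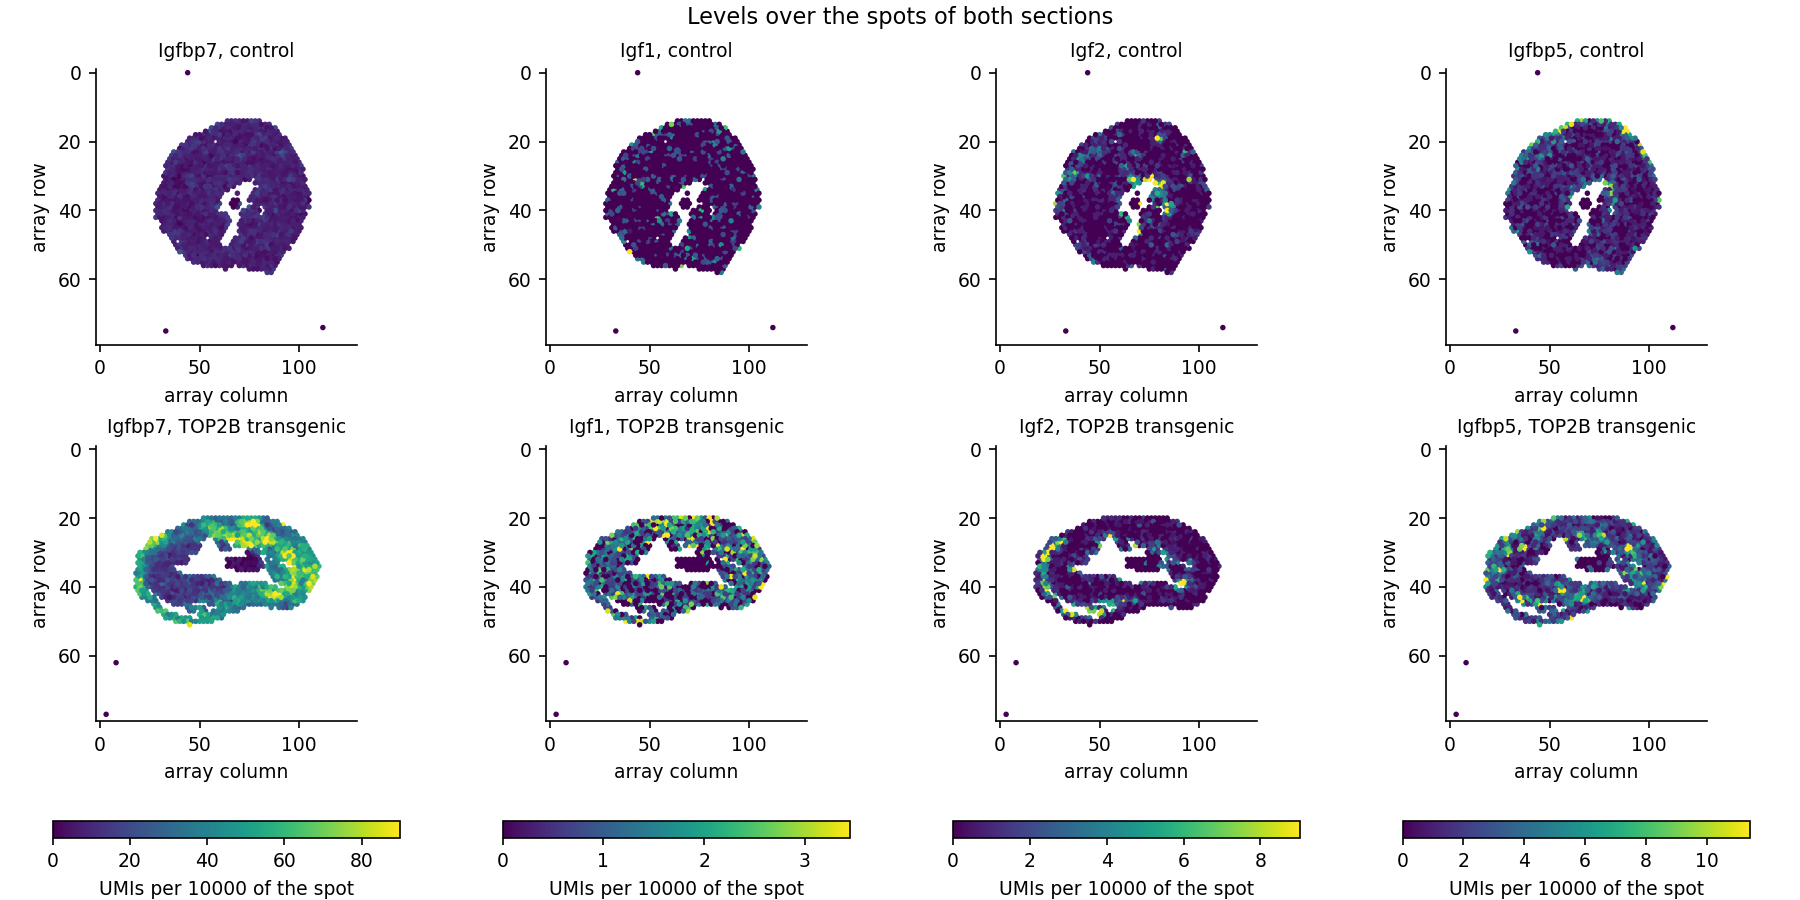
Spots of both sections by array column and row, colored by UMIs per 10000 of the spot (color capped at the 99th percentile over both sections, the same scale for both rows of a gene), for Igfbp7, Igf1, Igf2 and Igfbp5. Igfbp7 was higher in most transgenic spots (10th percentile 12.7, against a 90th percentile of 13.1 UMIs per 10000 in the control section) and highest on the right side (5304 and 5112 CPM in the right quadrants, 3494 and 2912 in the left), while Igf2 was higher in the left transgenic quadrants (162 and 142 CPM) than in the right ones (61.0 and 74.6 CPM) and Igfbp5 was higher at the edge of the control section (251 CPM) than in its interior (105 CPM).

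The receptors differed less than Igf1. Igf1r, which carries the signal of both ligands into the cell, was at 36.0 CPM (33.0 to 39.3) in the control and at 73.4 CPM (68.8 to 78.2) in the transgenic section, giving a log2 ratio of 1.03 (0.87 to 1.18). Its quadrants ran from 31.9 to 41.7 CPM in the control and from 66.0 to 88.3 CPM in the transgenic section. They did not overlap, and 30.4% of all genes had every transgenic quadrant above every control quadrant. Igf2r, the mannose 6-phosphate receptor, which clears IGF2 and sorts lysosomal enzymes, was at 91.0 CPM (86.1 to 96.1) and 152 CPM (146 to 159), a log2 ratio of 0.74 (0.64 to 0.85). In the control section Igf2r was the most even of the members over the quadrants, at 88.4 to 93.7 CPM. The transgenic quadrants, at 136 to 168 CPM, lay above all of them, again as for 30.4% of all genes. Insr, the insulin receptor, which pairs with IGF1R in hybrid receptors, was at 53.0 CPM in control and 45.9 CPM in transgenic tissue, a log2 ratio of -0.21 (-0.37 to -0.05). Spots with a UMI went from 33.4% to 60.2% for Igf1r and from 61.0% to 81.7% for Igf2r, and at equal depth from 24.98% to 44.3% and from 51.1% to 70.3%.

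Igfbp7, a secreted protein of vessel walls and matrix with low affinity for the IGFs, was the binding protein with the largest difference. It was at 833 CPM (818 to 848) in the control and at 4180 CPM (4144 to 4215) in the transgenic section, giving a log2 ratio of 2.33 (2.30 to 2.36) or 5.02-fold, rank 362 of 15236. Nearly every spot held it, 99.3% of control and 98.5% of transgenic spots, so the difference was one of amount per spot. The median spot had 8.03 Igfbp7 UMIs per 10000 (10th to 90th percentile 4.22 to 13.1) in the control and 38.4 (12.7 to 70.5) in the transgenic section. The spread within the transgenic section was thus wide. Its quadrants, at 2912 to 5304 CPM, all lay above those of the control section, at 795 to 870 CPM, as for 30.4% of all genes. Igfbp7 made up 73.2% (72.5 to 73.9) of the UMIs of Igfbp2 to Igfbp7 in the control and 85.4% (85.1 to 85.7) in the transgenic section. Without Igfbp7, the other 5 binding proteins summed to 4390 and 9265 UMIs, a log2 ratio of 1.23 (1.18 to 1.28).

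Igfbp3, the main carrier of IGFs in blood, was at 51.3 CPM (47.6 to 55.1) in the control and at 150 CPM (143 to 157) in the transgenic section, giving a log2 ratio of 1.55 (1.43 to 1.67). Igfbp4, an inhibitory binding protein that the protease PAPP-A cleaves, was at 118 CPM (113 to 124) and 271 CPM (262 to 280), a log2 ratio of 1.20 (1.11 to 1.28). Igfbp5, which binds to extracellular matrix, was at 125 CPM (119 to 131) and 271 CPM (262 to 280), a log2 ratio of 1.11 (1.03 to 1.20). For these 3 genes every transgenic quadrant lay above every control quadrant, as for 30.4% of all genes. The share of spots with a UMI went from 39.9% to 76.5% for Igfbp3, from 69.2% to 89.2% for Igfbp4 and from 66.4% to 88.2% for Igfbp5.

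Igfbp6, which prefers IGF2, and Igfbp2, a carrier of fetal and metabolic tissues, had few UMIs. Igfbp6 was at 8.76 CPM (7.30 to 10.4) in the control and at 19.2 CPM (16.9 to 21.8) in the transgenic section, giving a log2 ratio of 1.13 (0.82 to 1.45). Its quadrants, at 4.72 to 14.3 CPM and 15.1 to 24.2 CPM, stood just apart, where 30.4% of all genes had theirs apart in this direction. Igfbp2 had 24 UMIs in the control section (1.67 CPM) and 48 in the transgenic section (3.71 CPM), a log2 ratio of 1.15 (0.41 to 1.92), with overlapping quadrants. The 11 measured genes of a list not thought to be used by the heart, among them the thyroid gene Tg, were at 0.487 to 1.95 CPM in the control and at 0.386 to 2.93 CPM in the transgenic section. Igfbp2 therefore lay within this range in the control section and just above it in the transgenic section, and its ratio dropped to 0.30 in the spots richest in cardiomyocyte markers. Igfbp1, the only other classical binding protein, had 8 and 6 UMIs, too few for the limit of 20.

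The spatial score of each gene differed too. The deposited Moran's I was higher in the transgenic section for 10 of 10 members, as for 74.3% of all genes. The median of the members went from 0.05 to 0.19. All 10 also had more UMIs there, and what part the number of UMIs has in the higher scores was not tested. Igfbp7 went from 0.12, rank 64, to 0.70, rank 5 of 19227. Igfbp4 went from 0.08, rank 134, to 0.31, rank 400, and Igfbp3 from 0.08, rank 130, to 0.23, rank 600. Igf1, Igf2, Igfbp5 and Igfbp6 also ranked further from the top in the transgenic section, Igfbp5 at rank 525 against rank 32. Igf1r, Igf2r, Igfbp2 and Igfbp7 ranked nearer to the top there. Igf1r, at -0.00363 in the control section, was at 0.08 in the transgenic section. The blood-rich transgenic spots had a median of 5006 UMIs, against 14762 in the spots kept, so the score was computed again on log2 UMIs per 10000 over touching spots, with and without them. Igfbp7 was at 0.18 in the control and 0.85 in the transgenic section without these spots, and 0.19 and 0.80 with them. The transgenic score of Igf2r, however, was 0.16 with them and 0.04 without, that of Igf1 0.09 and 0.04, and that of Igf1r 0.09 and 0.04. All 10 members still scored higher in the transgenic section without these spots, as did 59.0% of all genes. For Igf1 the gap was then small, with 0.030 in the control and 0.037 in the transgenic section. The control scores of Igf2r and Igf1r without these spots were 0.02 and -0.01.

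**Figure D3:**
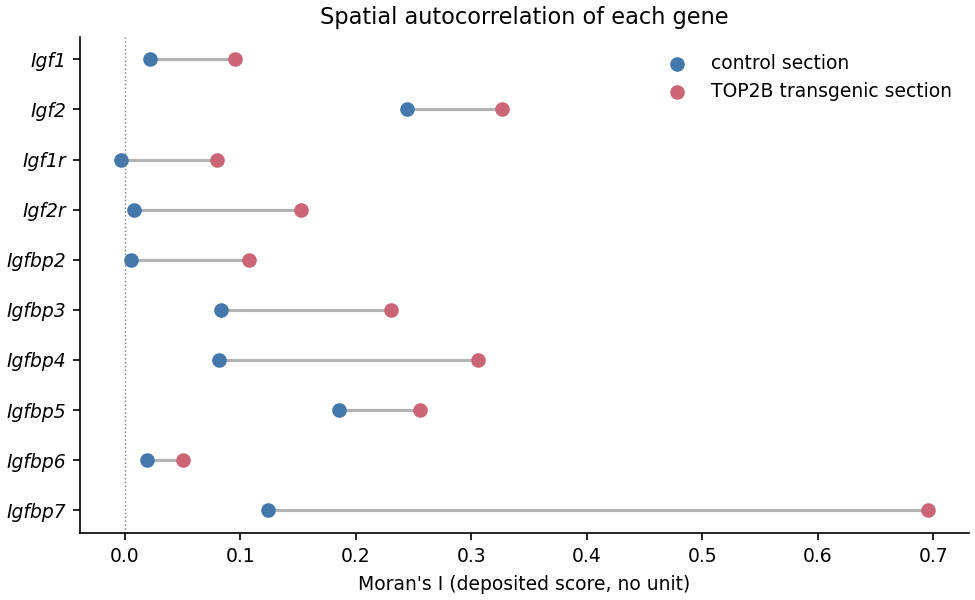
Deposited Moran's I of each gene in the control (blue) and TOP2B transgenic section (red), joined by a line. All 10 genes scored higher in the transgenic section, as did 74.3% of all genes. Igfbp7 was at 0.12 and 0.70, and Igf2 at 0.24 and 0.33.

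The edge of the tissue, that is spots with fewer than 6 neighboring spots over tissue and thus both the outer rim and the cavity side, was compared with the interior of the same section. In the control section Igfbp5 was at 251 CPM in the 230 edge spots and 105 CPM in the 1026 interior spots, a log2 ratio of 1.26 (1.11 to 1.41). Igfbp3 followed with 90.8 and 44.8 CPM, a log2 ratio of 1.02 (0.77 to 1.26). These were the 2 members at least 2-fold higher at the control edge, where 3.24% of all genes were. With the edge widened by 1 spot, Igfbp3 was at 0.61 there and Igfbp5, at 1.03, was the only one of the 10 past 2-fold. In the transgenic section Igfbp5 was at 275 CPM at the edge and 269 CPM in the interior, a log2 ratio of 0.03 (-0.08 to 0.14), and Igfbp3 was at 139 and 154 CPM, a log2 ratio of -0.15 (-0.30 to -0.00). There 0 of 10 members were at least 2-fold higher at the edge, where 1.2% of all genes were, but with the edge widened by 1 spot Igf2 was, at 1.19. None of the 10 was at least 2-fold lower at the edge of either section, against 1.9% of all genes in the control and 1% in the transgenic section.

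Set by region, the difference in Igfbp5 between the sections therefore lay in the interior: its log2 ratio of transgenic over control was 1.36 (1.27 to 1.46) over interior spots and 0.14 (-0.02 to 0.29) over edge spots. For Igfbp3 these were 1.78 (1.64 to 1.93) and 0.61 (0.37 to 0.87), and for Igfbp4 1.24 (1.14 to 1.34) and 0.78 (0.61 to 0.95). For Igfbp7 they were 2.35 (2.32 to 2.38) and 2.19 (2.12 to 2.26), a smaller gap whose intervals still did not overlap, and for Igf1r 1.00 (0.82 to 1.17) and 1.05 (0.68 to 1.43). Spots were ranked by the share of their own UMIs that was Igfbp5. Of the top 63 control spots, 74.6% (62.1 to 84.7) lay at the edge, where 18.3% of all spots lay. Of the top 47 transgenic spots 31.9% (19.1 to 47.1) did, where 33.7% of all spots lay. Both intervals treat spots as independent draws and do not allow for likeness of neighboring spots. Igf2 kept its edge in both sections, with log2 ratios of 0.94 (0.73 to 1.14) and 0.83 (0.67 to 0.98). Edge spots made up 18.3% of control and 33.7% of transgenic spots, and the shape of the sections differed, so what part of these differences the plane of the section has was not tested.

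**Figure D4:**
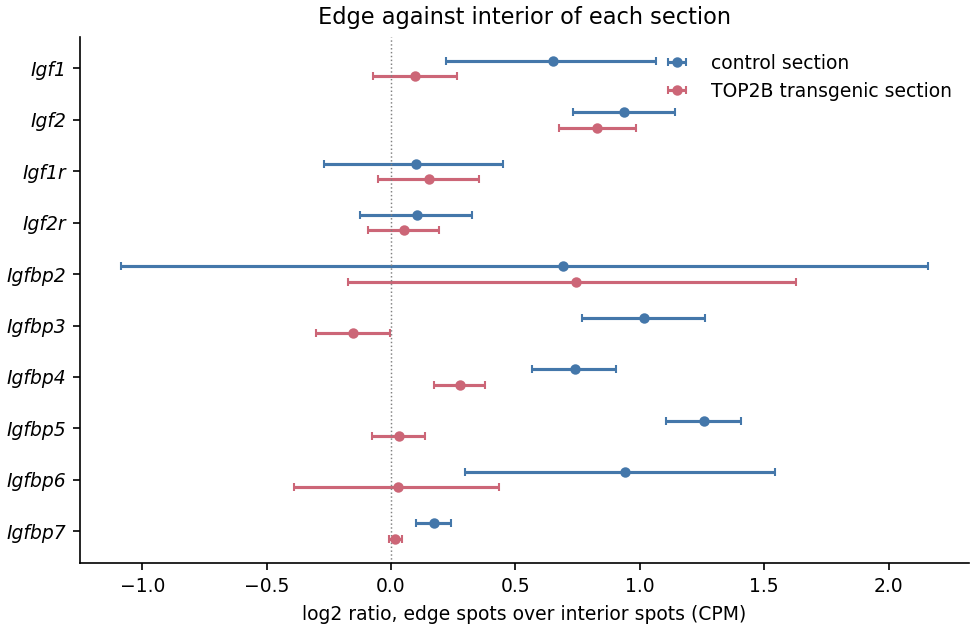
Log2 ratio of edge over interior CPM of each gene in the control (blue) and TOP2B transgenic section (red), with 95% exact intervals for counting error only. Igfbp5 and Igfbp3 were at 1.26 and 1.02 in the control and at 0.03 and -0.15 in the transgenic section, whereas Igf2 was at 0.94 and 0.83.

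Fibroblast markers were higher in the transgenic section too, and their part in the differences was not tested. Their summed level was 1519 CPM in the control section (quadrants 1400 to 1624) and 2342 CPM in the transgenic section (quadrants 2056 to 2537), 10 of 10 were higher there (63.2% of all genes were), 6 of them at least 2-fold (13.7% of all genes), and none was at 0. The intervals of 3 of the 10, Gsn, Dpt and Col15a1, reached below 0, with log2 ratios of 0.00, 0.06 and 0.03. Macrophage markers went from 315 to 621 CPM, with 8 of 8 higher (63.2% of all genes were). Endothelial markers were at 1811 and 1817 CPM, with 5 of 8 higher (63.2% of all genes were). Their log2 ratios ran from -0.92 for Kdr to 1.26 for Cldn5. Fabp4 held 13912 and 12738 of the 26033 and 23531 endothelial UMIs. Mural cell markers, of the cells that wrap vessels, were at 954 and 836 CPM, with 4 of 8 higher (63.2% of all genes were). Of the 13722 and 10827 mural UMIs, Abcc9, the lowest in ratio, held 3655 and 1105. Cnn1, the highest, held 45 and 271. Over spots, Igfbp7 was correlated with the summed fibroblast markers with a Spearman correlation of 0.34 in the control and 0.70 in the transgenic section, and with cardiomyocyte markers at -0.17 and -0.56. In the transgenic section it was also at 0.61 with atrial markers, 0.59 with the natriuretic peptide gene Nppa and 0.46 with macrophage markers. Of the 1703 atrial marker UMIs there, Dkk3 held 947, Myl7 409, Myl4 328, Sln 10 and Bmp10 9. In the control section, with 365, they held 57, 125, 158, 16 and 9. Whether the 0.61 marks atrial tissue was not tested. These values describe spots of 1 section that share a library and neighbors. The median spot held 9 Igfbp7 UMIs in the control and 52 in the transgenic section, and fewer UMIs can lower a correlation. What part this has in the higher transgenic correlations was not tested. The genes most like Igfbp7 were the matrix genes Mgp (0.28 and 0.85), Col1a2 (0.25 and 0.83) and Bgn (0.23 and 0.84), out of 3720 genes with at least 500 UMIs in each section.

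The other members had lower correlations with single genes. Igfbp4 was most like Apoe (0.20 and 0.51) and Mgp (0.29 and 0.42), and Igf2 most like Tm4sf1 (0.15 and 0.37). For the receptors the highest means over the sections were 0.13 for Igf1r with Itm2b and 0.16 for Igf2r with Dsp. The median transgenic spot held 1 UMI of Igf1r and 2 of Igf2r, against 52 of Igfbp7. Low counts can lower such correlations, and what part they have here was not tested. Between Igf1 and Igf2 the correlation was 0.10 in the control and 0.01 in the transgenic section. Igf1, Igfbp2 and Igfbp6 had under 500 UMIs in a section and were not ranked against other genes.

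Within each section, spots were split into 4 equal groups (quartiles) by their share of fibroblast marker UMIs. Igfbp7 went from 707 CPM in the quartile poorest in fibroblast markers to 1021 CPM in the richest in the control section, and from 2183 to 6248 CPM in the transgenic section. The poorest transgenic quartile was 2.14 times the richest control quartile. The summed fibroblast markers were at 1274 CPM in the one and 2548 CPM in the other. Of this sum over the control section, 21837 UMIs, Gsn and Dcn held 8547 and 5378. Over the transgenic section, with 30331 UMIs, they held 7706 and 10019. What part fibroblasts have in the difference was not tested. Igf1 was at 86.8 CPM in the poorest transgenic quartile, 2.94 times the 29.5 CPM of the richest control quartile. Igf2 went from 42.0 to 146 CPM in the control and from 67.7 to 176 CPM in the transgenic section. Its poorest transgenic quartile was 0.464 times its richest control quartile. This ratio was also below 1 for Igfbp6, at 0.630, and for Igfbp4, at 0.917 (170 and 185 CPM). For the remaining members it ran from 1.20 (Igfbp3) to 1.58 (Igfbp2). The value of Igfbp2 rests on only 8 and 6 UMIs, with intervals of 1.22 to 5.58 and 0.66 to 3.90 CPM. Over the 50% of spots poorest in fibroblast markers, a split chosen after the data were seen, the log2 ratios of transgenic over control were 1.96 for Igfbp7 and 0.70 for Igf2.

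**Figure D5:**
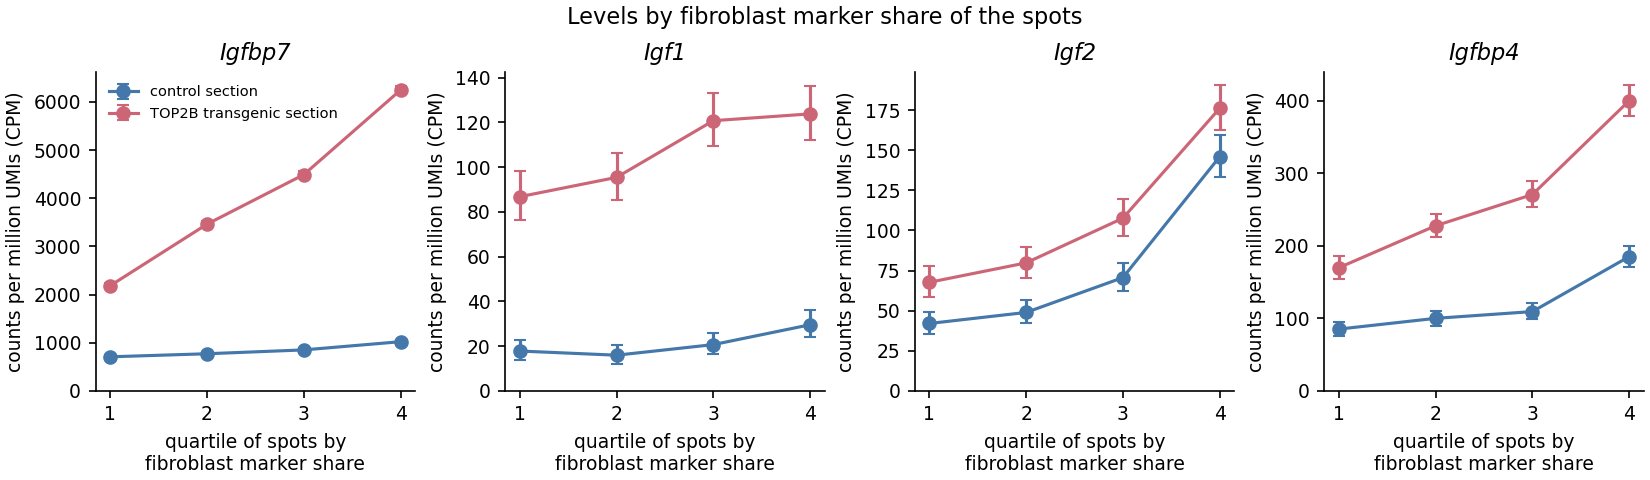
Level (CPM) of Igfbp7, Igf1, Igf2 and Igfbp4 in quartiles of the spots of each section, from the lowest (1) to the highest (4) share of fibroblast marker UMIs; bars are 95% Poisson intervals. For Igfbp7 and Igf1 the lowest transgenic quartile (2183 and 86.8 CPM) lay above the highest control quartile (1021 and 29.5 CPM), which it did not for Igf2 or Igfbp4.

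Downstream of the receptors, the IGF signaling list had a median log2 ratio of 0.32, against 0.20 for all genes. Of 31 listed genes with at least 20 UMIs, 23 were higher (63.2% of all genes were), 1 was at least 2-fold higher (13.7% of all genes) and 1 at least 2-fold lower (5.61% of all genes). Shc1, an adaptor that links receptors to the MAP kinase pathway, was highest at 1.18 (1.05 to 1.32), from 47.9 to 109 CPM. Grb14, an adaptor that inhibits insulin receptor signaling, was lowest at -1.70 (-1.82 to -1.58), from 174 to 53.6 CPM. Irs2, a docking protein of the receptors, was at 0.98 and Akt2, a kinase of the pathway, at -0.92. Among 12 targets of FOXO factors, which this pathway holds back, the median was 0.11, with Txnip highest at 1.07 and Sesn1 lowest at -1.13.

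The growth hormone axis, which drives Igf1 in liver, had a median log2 ratio of -0.90 over its 6 genes, against 0.20 for all genes. Of these 6, 2 were higher (63.2% of all genes were) and 0 at least 2-fold (13.7% of all genes). At least 2-fold lower was 1 (5.61% of all genes). The receptor gene Ghr was at -0.90 (80.3 and 43.1 CPM), the transcription factor gene Stat5a was lowest at -1.62 (64.1 and 20.9 CPM) and Socs2, a feedback inhibitor, was highest at 0.65. Genes linked to the release or carriage of IGFs split. Of 7, 4 (Pappa, Adamts1, Stc1 and Stc2) were at least 2-fold higher, as were 13.7% of all genes. The other 3 (Htra1, Vtn and Igfals) were at least 2-fold lower, as were 5.61% of all genes. These counts do not tell genes that promote release from genes that restrain it. Pappa, the protease that cleaves IGFBP4, was highest at 2.01 (1.32 to 2.76), from 22 to 80 UMIs, and Htra1, a protease that cleaves IGFBPs, lowest at -1.88 (-1.997 to -1.76), from 3033 to 743 UMIs.

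Of 13 genes that share the IGFBP domain, 9 were higher, near the 63.2% of all genes, 5 were at least 2-fold higher and 1, Htra1, at least 2-fold lower, against 13.7% and 5.61% of all genes, with a median of 0.75. Ccn5, a matricellular protein gene, was highest at 5.76 (5.51 to 6.02), from 132 to 6438 UMIs. The 7 genes of mannose 6-phosphate sorting, which IGF2R shares, had a median of 0.28, from Gga1 at -0.02 to Gga2 at 0.91. In the network of imprinted growth genes to which Igf2 belongs, 2 of 8 were at least 2-fold higher (13.7% of all genes), with a median of 0.67. Peg3 was highest at 2.32. Dlk1 was lowest at -0.43, with only 18 and 12 UMIs and an interval of -1.62 to 0.70. Of the 3 IGF2 mRNA-binding protein genes, Igf2bp1 had 1 and 0 UMIs, under the limit of 20. Igf2bp2 was at 1.71 (120 and 353 UMIs). Igf2bp3 was at 0.65 with only 12 and 17 UMIs, and its interval of -0.50 to 1.85 held 0.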

How the data were processed

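The authors deposited counts, 1 matrix of UMI counts per gene and spot for each section, not normalized, made with Space Ranger 2.0.0 per the file headers; the submitters' processing notes name bcl2fastq and the mouse build GRCm39 (mm39). The authors also deposited a Moran's I score for each gene, computed by the same pipeline. Spots were those the deposited position tables place over tissue. The groups were the 2 genotypes of the labels, with 1 section each.

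UMIs were summed per section and expressed per 1000000. Ratios have exact conditional binomial intervals, levels exact Poisson intervals and shares of spots Clopper-Pearson intervals, all at 95%. Genes with at least 20 UMIs over both sections were the background, and 2-fold was the limit for a called difference. A floor of 3 counts equals 0.209 CPM for control and 0.232 CPM for transgenic tissue. Shares at equal depth are expected shares at the 10th percentile of depth. No doublet caller was run, since spots are not cells. The intervals of ratios were tested on counts simulated with counting error only. That test does not reach spread between animals or likeness of neighboring spots. Python 3.11.15, numpy 2.4.6, scipy 1.17.1, pandas 2.3.3, R 4.3.3, edgeR 4.0.16 and DESeq2 1.42.0 were used, the last 2 for scaling factors only. Named genes were the members, the highest and lowest gene of each list, and the 3 most like each member with at least 500 UMIs per section; Top2b, Insr, Irs2, Akt2, Ghr, Igfbp1, Igf2bp1, Gsn, Dpt, Col15a1, Nppa and Tg were added after their values were seen, and 1 gene of a list is not reported here. Members, lists and rules were chosen with earlier results of these data known. Leaving out blood-rich and detached spots was chosen after seeing the data. Promoter windows are from RefSeq on GRCm38.p6, another build than that of the files, and were matched by symbol for all 10 members.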

Additional observations from a re-analysis of the deposited data

How the results depend on the processing

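All 10 members were higher in the transgenic section under each of the alternatives that kept all 10 (9 of 9 with at least 200 UMIs), and the median of the members minus that of all genes, which scaling factors cannot move, ran from 0.87 to 1.05 over the other alternatives. The count at least 2-fold higher was 8, but 4 with edgeR TMM factors and 5 with DESeq2 size factors. These factors moved the median of all genes from 0.20 to 0.05, so changes near 2-fold depend on the scaling. The lowest ratio of Igfbp7 was 1.85 and that of Igfbp6 0.62, both in the spots richest in cardiomyocyte markers. The growth hormone axis median of -0.90 was -1.06 with TMM, -1.05 with DESeq2 and -0.72 in the spots richest in cardiomyocyte markers. With at least 200 UMIs per gene, fewer genes were left. The median of the genes linked to IGF release or carriage was then -0.15 in place of 1.22. That of the IGFBP-domain relatives was 1.93 in place of 0.75. With the edge widened by 1 spot, 1 member, Igfbp5, was at least 2-fold higher at the control edge (2 before) and 1, Igf2, at the transgenic edge (0 before). Without the blood-rich and detached spots the members' median was 1.16 and the 2-fold count 8. No paired analysis was possible because each genotype had 1 section; leaving out a replicate was not possible for the same reason. Depth limits Igfbp2, with 24 and 48 UMIs, and Igfbp6.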
